A study of Mus musculus with 4 samples.

Results

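A set of 9 genes of neuronal commitment in the embryonic cortex was followed in cultured mouse neural stem cells with and without Mettl4, a gene for an adenosine methyltransferase. The genes were named as proneural and intermediate progenitor genes, with earlier results of these data known: Neurog2, Eomes, Hes6, Insm1, Btg2, Tcf4, Tcf12, Tcf3 and Gadd45g. All 9 of 9 were found among the 55414 gene identifiers of the count files, and 7 of them were among the 19912 genes with enough reads to be tested. The cells came from the cortex of mouse embryos at stage E14.5, were amplified as floating spheres and then grown as a monolayer on poly-D-lysine, in a medium with 20 ng/ml EGF, 10 ng/ml bFGF, N2 and B27 without vitamin A. The 2 groups were wild type (2 libraries) and Mettl4 knockout (2 libraries), both from this culture and differing in the labels by genotype alone. No source used here gives the knockout allele, the part of Mettl4 removed or the strain, nor whether the libraries of a group came from separate embryos or cultures. The p-values below therefore reflect library-to-library spread, part of which may be technical.

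Proneural factors are basic helix-loop-helix (bHLH) proteins that start neuronal differentiation, and they bind DNA as pairs with the broadly made E proteins encoded by Tcf3, Tcf4 and Tcf12. Id proteins capture E proteins and Hes proteins repress proneural genes, and both hold cells in the progenitor state. In the developing cortex, radial glia that begin to make Neurog2 give rise to intermediate progenitors, which are marked by Eomes and Insm1 and divide to form neurons. EGF and bFGF in culture favour continued division.

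Library totals ran from 12812064 to 19310668 counts. Levels are given as CPM, reads of a gene for every 1000000 reads of its library after TMM scaling in edgeR, always with replicate 1 before replicate 2. Mettl4 itself stood at 63.8 and 66.6 CPM in the wild type libraries against 15.6 and 17.6 CPM in the knockout libraries (log2 fold change -1.97, SE 0.17, adjusted p = 0.0051 by edgeR), so the genotype labels matched the targeted gene. Of the radial glial markers 8 of 8 were tested, with a summed level of 5172 to 6237 CPM. Most of that sum was Fabp7, Vim and Slc1a3, while Prom1 lay between 6.86 and 7.55 CPM. Being tested does not set this list apart, as 5 of 5 red blood cell genes were tested too. Markers of other lineages were scarce for microglia (6.84 to 8.02 CPM summed over 6 genes), endothelium (2.34 to 3.35 CPM over 5) and lymphocytes (0.219 to 1.10 CPM over 5, with Cd3e and Pax5 at 0 counts in every library). The 7 neuronal markers differed widely in level. Map2 was abundant, at 1000 to 1335 CPM, and Mapt had 265 to 770 counts, whereas Tubb3, Dcx, Rbfox3 and Snap25 lay between 1.51 and 6.83 CPM and Stmn2 had 0, 5, 0 and 3 counts.

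The promoters of 4 genes are shown, picked by their RNA values: Neurog2 and Eomes had next to no RNA, Gadd45g had moderate levels, and Hes6 was the gene with the smallest p. A link between these sequences and the RNA levels was not tested. Each sequence is the 150 bases before a RefSeq start site (build GRCm38.p6), read 5′ to 3′ on the strand of the gene, with capitals for an E-box (CANNTG, the site bHLH dimers bind, which reads alike on both strands) and for TATAAA on either strand. The matches do not overlap.
Neurog2, chr3:127632986-127633135, plus strand: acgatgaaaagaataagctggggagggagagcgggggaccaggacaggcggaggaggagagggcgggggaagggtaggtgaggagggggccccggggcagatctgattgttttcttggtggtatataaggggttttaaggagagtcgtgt
Eomes, chr9:118478039-118478188, plus strand: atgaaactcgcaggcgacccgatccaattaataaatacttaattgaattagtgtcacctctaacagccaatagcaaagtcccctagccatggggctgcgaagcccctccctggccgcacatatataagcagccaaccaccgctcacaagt
Hes6, chr1:91413223-91413372, minus strand: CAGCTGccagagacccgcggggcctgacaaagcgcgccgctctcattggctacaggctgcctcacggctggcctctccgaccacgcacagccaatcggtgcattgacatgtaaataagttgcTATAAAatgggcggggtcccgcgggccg
Gadd45g, chr13:51846525-51846674, plus strand: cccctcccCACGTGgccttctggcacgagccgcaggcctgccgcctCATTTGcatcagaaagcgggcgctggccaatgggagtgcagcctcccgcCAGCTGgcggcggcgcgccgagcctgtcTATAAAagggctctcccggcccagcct
The Gadd45g stretch held 3 E-boxes and 1 TATAAA, and the Hes6 stretch 1 of each. The Neurog2 and Eomes stretches held neither of these letter strings. Both hold tatataag near their end, which a search for TATAAA does not count, so a TATA box of another form is not excluded. Of the windows not shown, that of Btg2, expressed at 66.5 to 83.3 CPM, held neither string. That of Tcf3 and 1 window of Tcf12 held 1 E-box each and no TATAAA. Of the 32851 windows of this length in the table, 47.7% held at least 1 CANNTG and 7.57% held TATAAA, so an E-box is common. The table holds another start site for Hes6, whose window had no match. Windows were searched for 7 of the 9 genes, and the remaining windows are not shown. Insm1 had no window in the table, and Tcf4 was left out of the search.

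Neurog2, the proneural factor that drives cortical excitatory neurogenesis, was hardly detected. The wild type libraries held 5 and 1 counts and the knockout libraries 4 and 5. That is 0.377, 0.0610, 0.211 and 0.274 CPM, with exact Poisson 95% intervals that together reach from 0.00154 to 0.881 CPM and overlap between all libraries. These intervals cover counting error only. Eomes, the T-box factor of intermediate progenitors, was counted 3 and 6 times in wild type libraries and 6 and 4 times in knockout libraries, or 0.226, 0.366, 0.317 and 0.219 CPM. Both genes lay under the low-count filter and have no fold change in the reported fit. The fit without that filter covers them, but its values for them are not given here. A difference in either was not detectable at this depth. An antisense gene, Gm33460, shares 118 exon bases with Eomes in the annotation used and had 2, 0, 2 and 0 counts. Whether the counting used strand is unknown, so reads of that overlap could belong to either gene.

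Insm1, a zinc finger repressor that promotes the birth of intermediate progenitors, was expressed at a modest level. The wild type libraries read 9.66 and 8.48 CPM and the knockout libraries 11.4 and 7.39 CPM. The knockout libraries thus held both the highest and the lowest value, and the groups overlapped. The log2 fold change was 0.06 (SE 0.27), and the 95% interval ran from -0.54 to 0.65. Insm1 and Eomes both mark intermediate progenitors in the cortex, and here the mean level of Insm1 was 2.98 CPM per kilobase of exon where that of Eomes was 0.0679.

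Hes6 (ENSMUSG00000067071 in the files, on chromosome 1), a Hes family member that opposes Hes1 and favours neuronal differentiation, was the gene of the 9 with the clearest difference between the groups. The wild type libraries measured 70.9 and 71.4 CPM and the knockout libraries 52.7 and 48.7 CPM. Both knockout libraries lay under both wild type libraries, and the gap was wider than the spread within either group (71.2 ± 0.320 CPM against 50.7 ± 2.83 CPM, SD, n = 2 each). As a share of the wild type level, knockout Hes6 was at 71.3%, with a 95% interval from 57.1% to 88.9% that is not adjusted for the number of genes. The difference did not pass the test over all genes (log2 fold change -0.49, SE 0.14, edgeR adjusted p = 1.00). With an unadjusted value of 0.0064 in the edgeR quasi-likelihood test it ranked 76 by p among the 19912 tested genes. Of all tested genes 2.77% had an unadjusted p under 0.05, a smaller share than that threshold passes without any differences. The rank is therefore no evidence of a difference. In 12 of 12 alternative fits the value stayed between -0.55 and -0.43, and the smallest adjusted p was 0.13.

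The summed levels of 4 marker lists did not overlap between the groups. Those of radial glia, neurons, microglia, endothelium and red blood cells did overlap. With 2 libraries a group a lack of overlap is common, and among single genes it held for 27.4% of all tested genes. The summed level of 6 oligodendrocyte lineage genes was 506 and 521 CPM in wild type libraries and 589 and 574 CPM in knockout libraries. Most of that sum was Olig2 (440 and 467 against 504 and 509 CPM). All 6 genes had a positive log2 fold change, and 4 of the 6 did not overlap between the groups. The largest was that of the scarce Sox10, at 0.528 and 1.34 against 3.22 and 2.52 CPM (log2 fold change 1.57, SE 0.45). Its unadjusted p was 0.0057 in the edgeR quasi-likelihood test, and it did not pass the test over all genes. Over 5 astrocyte genes the sum was 287 and 369 CPM against 412 and 371 CPM, where Aldh1l1 read 110.3 and 158 against 247 and 198 CPM and 3 of the 5 genes had a negative log2 fold change. Over 6 mesenchymal and meningeal genes it was 7.47 and 4.76 CPM against 3.32 and 2.19 CPM, most of it Acta2 (6.64 and 3.66 against 2.59 and 1.81 CPM), the only tested gene of that list, while Dcn had 3, 0, 7 and 6 counts. The 5 lymphocyte genes, each under 1 CPM in every library, summed to 0.906 and 1.10 CPM against 0.633 and 0.219 CPM. The 7 neuronal genes summed to 1056 and 1323 CPM against 1172 and 1365 CPM, overlapping, and most of that sum was Map2. The part of these lists in the Hes6 value was not tested. In these bulk libraries, fewer cells of a type and less RNA per cell cannot be told apart.

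The 3 genes whose pattern over the 4 libraries was nearest to that of Hes6, by the root mean square difference of centred log2 CPM, were Trim16 (0.0194), Bcor (0.0322) and Acad11 (0.0393). They were taken from 9447 protein-coding genes with a mean of at least 10 CPM, of which 74 lay within 0.1. Bcor, which encodes a corepressor that works with BCL6, read 19.7 and 20.6 CPM against 14.8 and 13.2 CPM. With 4 libraries such likeness is a description only.

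The E protein genes were the most abundant of the set in CPM. Tcf4, which encodes E2-2 and is unrelated to the Wnt effector Tcf7l2 that is also called TCF4, measured 604 and 700 CPM in wild type libraries and 635 and 685 CPM in knockout libraries. The knockout values lay inside the wild type range. The log2 fold change was 0.02 (SE 0.18), and the interval allows a knockout level between 76.4% and 134% of the wild type. Tcf12, which encodes HEB, read 543 and 612 CPM against 560 and 683 CPM. Knockout replicate 2 was highest, the groups overlapped, and the log2 fold change was 0.10 (SE 0.19). Tcf3, which encodes the E2A proteins, read 110 and 81.1 CPM in wild type cells and 106 and 107 CPM in knockout cells. Wild type replicate 2 was low and the other libraries lay close together, with a log2 fold change of 0.16 (SE 0.17).

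**Figure D1:**
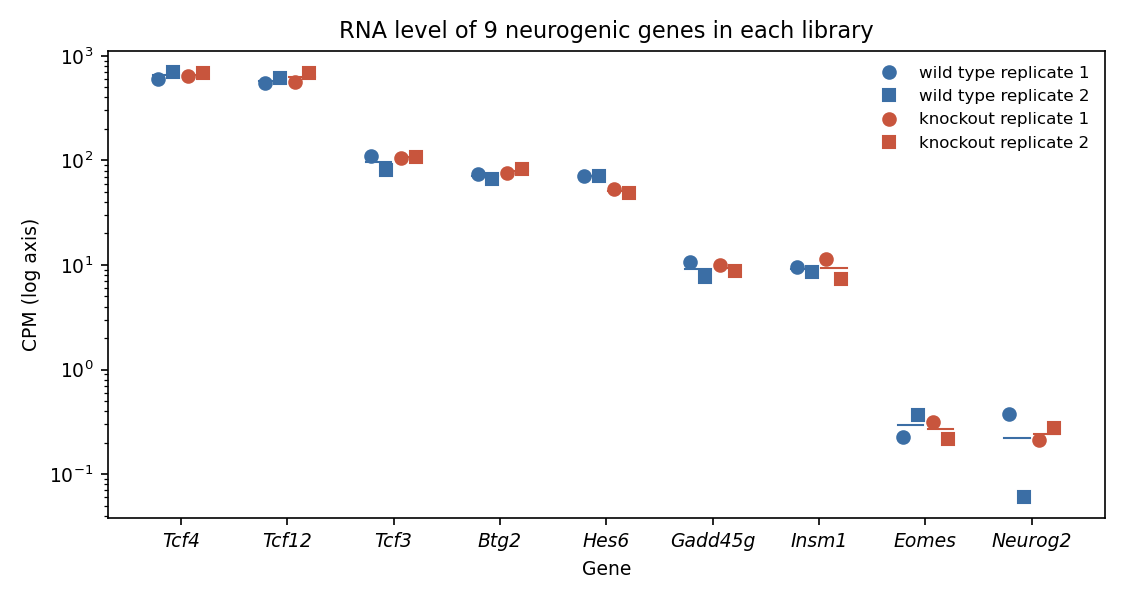
Level of each of the 9 genes in CPM (log axis) in the 2 wild type libraries (blue) and the 2 knockout libraries (red), with circles for replicate 1, squares for replicate 2 and short lines for the group means. Hes6 is the gene whose red points both sit well under the blue ones, at 52.7 and 48.7 against 70.9 and 71.4 CPM, and Eomes and Neurog2 lie under 0.4 CPM in every library.

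Between genes, levels are comparable only per length. With the joined length of all annotated exons, the mean over the 4 libraries was 38.6 CPM per kilobase for Tcf12, 33.7 for Hes6, 27.3 for Btg2, 25.0 for Tcf3, 24.0 for Tcf4, 7.92 for Gadd45g, 2.98 for Insm1, 0.104 for Neurog2 and 0.0679 for Eomes. The ranges over the libraries of neighbours among the upper 5 overlapped. Those of Tcf4 (22.1 to 25.6), Gadd45g (6.60 to 9.07) and Insm1 (2.38 to 3.69) were apart, and those of Neurog2 and Eomes overlapped. Set against the 13560 tested protein-coding genes with a length, Tcf12 stood at percentile 92.8, Hes6 at 91.5, Gadd45g at 61.1 and Insm1 at 34.4, while Neurog2 and Eomes stood at 0.914 and 0.251. Neurog2 and Eomes had too few reads to belong to that reference, so their low place in it was largely given in advance. The order of the upper genes depended on the length used. Tcf4 has 27382 bases of joined exons but a longest transcript of 8577 bases, and by the longest transcript Tcf12 (95.2 CPM per kilobase) and Tcf4 (76.5) stood over Hes6 (38.7) and Tcf3 (34.2).

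**Figure D2:**
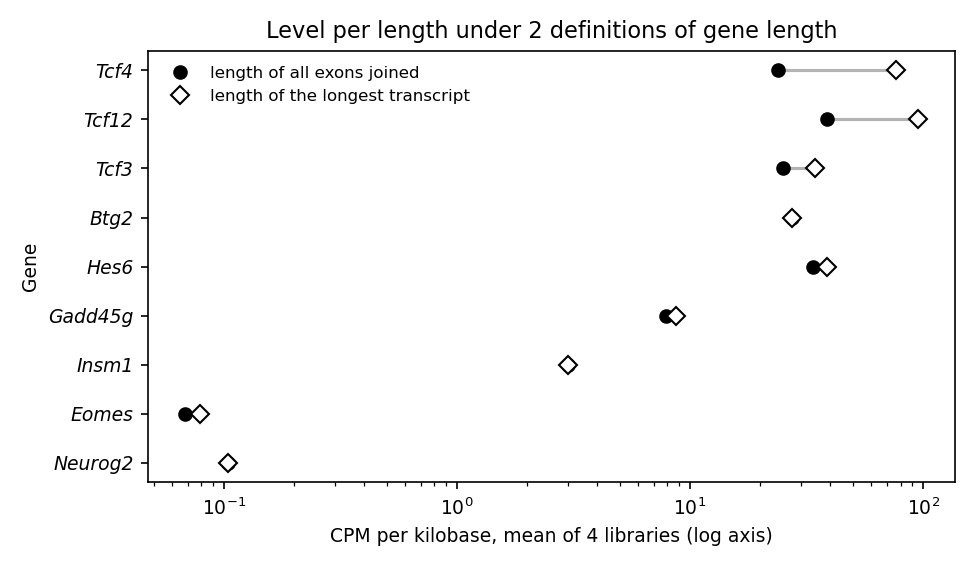
Mean level per kilobase over the 4 libraries (log axis) for each of the 9 genes, with filled circles for the joined exon length and open diamonds for the longest transcript. Tcf4 moves from 24.0 to 76.5 CPM per kilobase and Tcf12 from 38.6 to 95.2, while Eomes and Neurog2 stay near 0.1 or under it.

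The makeup of the E protein RNA did not separate the genotypes. Per kilobase of joined exons, Tcf12 made up 41.5% and 46.3% of the summed E protein level in wild type libraries and 42.2% and 46.0% in knockout libraries. Tcf3 made up 32.3% and 23.6% against 30.7% and 27.8%. For both genes the knockout shares lay within the range of the wild type shares. The summed level of Id1, Id2, Id3 and Id4, whose proteins take E proteins away from their partners, was 0.931 and 1.06 times that of the E protein genes in wild type libraries and 0.964 and 0.901 times in knockout libraries. These ratios overlapped between the groups and were lower with the longest transcripts, from 0.494 to 0.564.

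Btg2 and Gadd45g, which slow the cell cycle and mark progenitors about to make neurons, were both expressed. Btg2, an antiproliferative gene of neurogenic divisions, measured 73.9 and 66.5 CPM in wild type libraries and 75.7 and 83.3 CPM in knockout libraries. The knockout libraries were both higher, but the gap between the nearest libraries was smaller than the difference within either group, and the log2 fold change was 0.18 (SE 0.14). Gadd45g, a small stress and differentiation protein gene, measured 10.6 and 7.74 CPM against 9.97 and 8.81 CPM, with the knockout values inside the wild type range and a log2 fold change of 0.04 (SE 0.25). Its interval allows a knockout level between 69.9% and 150.3% of the wild type, so a change of moderate size in Gadd45g was not detectable.

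Counted together, 0 of the 7 tested genes passed an adjusted p of 0.05 by edgeR, where 0.00502% of all tested genes did, which was Mettl4 alone. At an unadjusted p under 0.05 there was 1 of 7, Hes6, beside 2.77% of all tested genes (1.62% lower and 1.15% higher). The libraries of the groups did not overlap for 2 of 7, with Hes6 lower and Btg2 higher, beside 27.4% of all tested genes (14.9% lower and 12.5% higher). DESeq2 and limma-voom likewise called 0 of the 7. The log2 fold change was positive for 6 and negative for 1, with a median of 0.06, where all tested genes had a median of -0.00131. The 2 genes under the filter are not in these counts. For 5 of the 6 positive genes the sign turned in at least 1 of the 4 fits without a library, so those directions are not established. That of Btg2 is not established either, as its 95% interval ran from -0.14 to 0.50. Without wild type replicate 1, Tcf4 was at -0.09. Without wild type replicate 2, Tcf3 was at -0.03, Insm1 at -0.03 and Gadd45g at -0.17. Without knockout replicate 1, Insm1 was at -0.29 and Gadd45g at -0.06. Without knockout replicate 2, Tcf4 was at -0.04 and Tcf12 at -0.04.

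**Figure D3:**
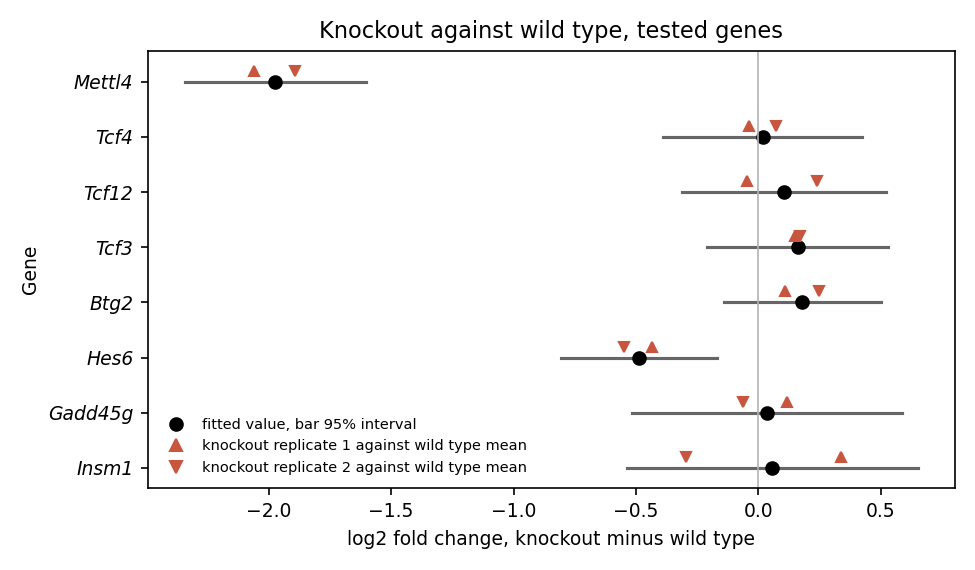
Log2 fold change, knockout minus wild type, for Mettl4 and the 7 tested genes, with black points for the fitted values, bars for 95% intervals and red triangles for each knockout library against the wild type mean. Mettl4 lies at -1.97 and Hes6 at -0.49 with both triangles on the same side of 0, while the knockout libraries of Insm1 fall on opposite sides, at 0.34 and -0.30.

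Other genes of the pathway were read from lists chosen by function, and levels written with ± give the wild type before the knockout, with the SD over n = 2 libraries each. Of 11 further proneural and neuronal bHLH genes only 3 were tested, all 3 with values below 0 on the log2 scale (median -0.41), and Neurog1, Neurog3, Neurod2 and Atoh1 had 0 counts in every library, which allows up to 0.155 to 0.234 CPM (3 counts of a library total, counting error only). Neurod4 had 11 to 18 counts a library (log2 fold change -0.41, SE 0.52) and Bhlhe22 had 6 to 19 (-1.04, SE 0.65).

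Among 10 Id, Hes and Hey genes that oppose bHLH factors, 8 were tested, with 4 positive, 4 negative and a median of 0.03. Id3 was the most abundant Id gene, at 93.9 ± 1.00 CPM against 90.0 ± 1.21 CPM. Hes1, the Notch effector that Hes6 opposes, was at 19.6 ± 3.23 and 16.7 ± 0.441 CPM, with a log2 fold change of -0.23 (SE 0.21). Hey1 was at 0.20 (SE 0.17), Id2 at 0.27 (SE 0.25) and the scarce Hey2 at -0.83 (SE 0.46). None of the 8 passed an unadjusted p of 0.05.

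Of 20 proneural targets and further intermediate progenitor genes, 18 were tested, with 9 positive, 9 negative and a median of -0.05. Sox4, a transcription factor of committed progenitors, was at 450 ± 4.64 CPM against 555 ± 58.5 CPM (log2 fold change 0.30, SE 0.17). Rnd3, a small GTPase gene that acts in neuronal migration, was at -0.22 (SE 0.15), the corepressor gene Cbfa2t2 at -0.19 (SE 0.16) and the chemokine receptor gene Cxcr4 at -0.35 (SE 0.32). Of 10 relatives and binding partners, 10 were tested, with 6 positive, 4 negative and a median of 0.13. The deadenylase gene Cnot7, whose product binds Btg2, was at 79.6 ± 2.87 and 97.3 ± 11.4 CPM (log2 fold change 0.29, SE 0.15). Kdm1a, a histone demethylase that Insm1 recruits, was at 0.23 (SE 0.14), Gadd45a at -0.32 (SE 0.28), and Tbr1, a relative of Eomes in cortical neurons, at -0.52 (SE 0.34) with 33 to 51 counts a library. The HMG-box factors that share TCF names with the E proteins, Tcf7, Tcf7l1 and Tcf7l2, ranged from -0.07 to 0.16. The list medians moved when 1 library was left out. That of the antagonists turned to -0.06 and -0.04 when either wild type library was left out (replicate 1, then 2) and to -0.03 without knockout replicate 1. That of the proneural targets turned to 0.05 without wild type replicate 1 and 0.07 without knockout replicate 2, and that of the relatives and partners to -0.0033 without knockout replicate 1. That of the HMG-box genes turned to -0.21 without wild type replicate 2 and -0.17 without knockout replicate 1, and that of the further bHLH genes, below 0 in each of these fits, went to -0.79 without knockout replicate 2. Over these lists 0 genes passed an adjusted p of 0.05 by edgeR and 0 an unadjusted p of 0.05.

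**Figure D4:**
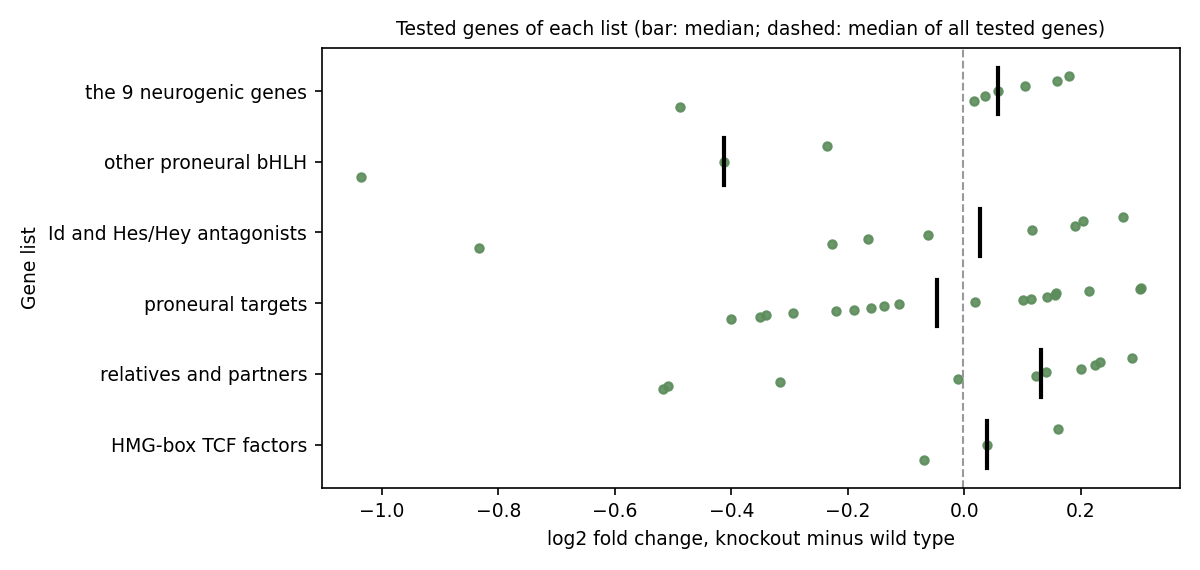
Log2 fold change, knockout minus wild type, of each tested gene (green points) in the 9-gene set and the 5 lists of related genes, with black bars for list medians and a dashed line for the median of all tested genes. The medians lie between -0.05 and 0.13, except for the further bHLH genes at -0.41 with 3 tested genes, and Hes6 stands apart on the left of its row at -0.49.

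**Figure D5:**
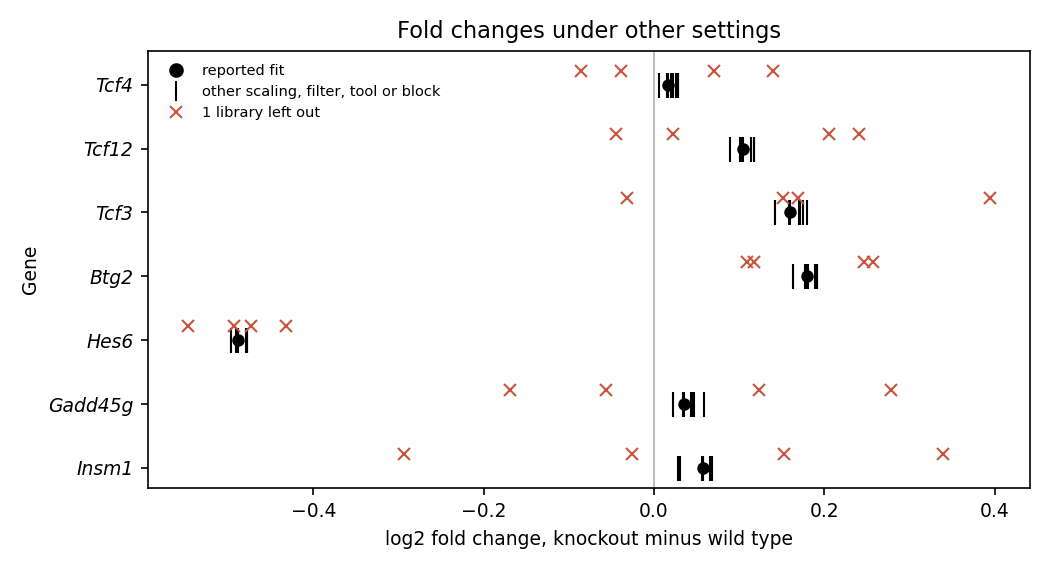
Log2 fold change of the 7 tested genes in the reported fit (circles), under other scaling, filters, tools or a replicate block (black ticks) and with 1 library left out (red crosses). Hes6 stays between -0.55 and -0.43 and Btg2 between 0.11 and 0.26, while the crosses of the other 5 genes fall on both sides of 0.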

How the data were processed

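Gene expression was measured by RNA sequencing of total RNA in 4 libraries made with the NEBNext Ultra kit, per the labels' protocols. The authors deposited raw counts of reads per Ensembl gene. STAR 2.7.10, featureCounts and the build GRCm39 were used, per the submitters' processing notes. Strand and multi-mapping settings are unknown from these sources. Symbols and lengths came from GENCODE M21, an earlier build (52133 of 55414 identifiers matched), so no gene coordinates are given, and promoters came from RefSeq. Genes were filtered with filterByExpr (minimum count 10) and compared between genotypes by the quasi-likelihood test of edgeR 4.0.16 (in R 4.3.3, TMM scaling, robust=TRUE). P-values were Benjamini-Hochberg adjusted over 19912 genes, and each standard error was taken as the log2 value divided by the square root of F. The common dispersion was 0.0272. The test was also run on simulated counts, with changes larger than those of the tested genes of the set. That run does not show its power for changes of their size. The genes, lists and alternatives were chosen with earlier results of these data known. From each list up to 4 tested genes with the smallest p were named, and others were added after their values were seen. A gene that this rule takes is not reported here. Alternatives used DESeq2 1.42.0, limma 3.58.1, other scaling and filters, fits without 1 library, and a replicate block.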

Additional observations from a re-analysis of the deposited data

How the results depend on the processing

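The number of genes called over the whole table was 1 in the reported fit, 41 without a low-count filter, 6 with DESeq2 on the same genes, 9 with the replicate number as a block, and from 1 to 47 when 1 library was left out. Leaving out wild type replicate 1 gave 31 and replicate 2 gave 17, while leaving out knockout replicate 1 gave 47 and replicate 2 gave 1. The remaining single library is there assumed to vary as the other group does. Under these and the other settings 0 of 84 values of the 7 genes passed the threshold, so none of the 7 was called in any of them. The sign turned in 8 of the 84, each time in a fit without 1 library, and 0 times with all 4 libraries. With 1 library left out, Insm1 ranged from -0.293 to 0.339, Tcf4 from -0.0852 to 0.140, Tcf12 from -0.0448 to 0.241, Tcf3 from -0.0312 to 0.394 and Gadd45g from -0.169 to 0.278, and the median of the 7 from -0.0258 without wild type replicate 2 to 0.153 without wild type replicate 1. Hes6 and Btg2 kept their sign in each of the 12 alternatives. Their libraries did not overlap between the groups, so leaving out 1 library could hardly turn the sign. The kept sign therefore adds no support to either direction. The labels do not say that equal replicate numbers mark a shared litter or day. The deviations of same-numbered libraries correlated at 0.23 across genes, a single value from 2 groups of 2. With the block, Hes6 was at -0.49 with an adjusted p of 0.13. Neurog2 and Eomes were under the filter and have no reported value to compare. Depth limits both to a statement of near absence, and for Insm1 the 95% interval allows a knockout level from 68.9% to 157% of the wild type.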

Other observations

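Some genes of this pathway differed more between the replicate numbers than between the genotypes. The genes named here were chosen with their values known. The Notch ligand gene Dll3, a proneural target, read 14.49 and 7.32 CPM in wild type libraries (replicate 1, then 2) and 17.0 and 9.74 CPM in knockout libraries. Hes5, a Notch effector, read 65.2 and 44.5 CPM against 69.2 and 55.7 CPM. Insm1 and Gadd45g were also higher in replicate 1 of both genotypes, by 0.19 and 0.63 log2 for Insm1 and by 0.46 and 0.18 log2 for Gadd45g. Tcf4 (-0.21 and -0.11 log2, replicate 1 minus replicate 2, wild type then knockout) and Tcf12 (-0.17 and -0.29) were higher in replicate 2 of both. Of the 18 tested proneural targets and intermediate progenitor genes, 8 were higher in replicate 1 of both genotypes and 6 in replicate 2 of both. Of the 7 tested genes of the set these counts were 2 and 2, and of all tested genes the shares were 33.8% and 30.5%.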
